A study of Mus musculus with 4 samples.

Results

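The transcription factors that mark and hold the naive state of mouse embryonic stem cells were followed in clones with and without the histone acetyltransferase Gcn5 (Kat2a). The 10 factors, Klf2, Klf4, Klf5, Esrrb, Tbx3, Tfcp2l1, Nr0b1, Nr5a2, Zfp42 and Zfp296, were taken by gene symbol from a fixed list, and all 10 were found among 23259 genes. All 10 also stood among the 11932 tested genes, whose mean over the clones reached 1 FPKM (fragments per kilobase of transcript, here on a scale set by spike-in RNA). RNA was sequenced from 4 clones. From each of the 2 Gcn5 flox/flox founder lines, 4 and 6, came 1 WT clone (4-1 and 6-1), picked from the cells that stayed GFP-negative, and 1 KO clone (4-C2 and 6-C4), picked from GFP-positive cells after transient transfection with an EGFP-Cre vector driven by the EF1α promoter. The WT clones thus carry unrecombined flox alleles, and the KO clones lack exons 3 to 18 of Gcn5. All clones were male embryonic stem cells grown on mitomycin-treated fibroblast feeders with 15% serum and 1000 U/mL of LIF, so the KO and WT clones of a line share their founder, and each genotype has n = 2 clones.

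Naive pluripotency is the state of the early epiblast that embryonic stem cells keep in culture. The cytokine LIF acts through Stat3 on Klf4 and Tfcp2l1, Wnt signalling lifts repression by Tcf7l1 from genes such as Esrrb, and FGF and ERK signalling pushes cells out of the state. The factors form a network in which many members bind near each other's genes, and most are shut off when cells move to the formative and primed states.

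Kat2a, the deleted gene, stood at 38.7 FPKM in WT of line 4, at 34.4 in WT of line 6 and at 11.5 in each KO clone (limma adjusted p = 0.0112), over the whole gene with its remaining exons. Most genes were listed lower in KO: the median log2 difference of all tested genes was -0.44 in line 4 and -0.19 in line 6, so values below are also given relative to this median gene. Summed FPKM over all genes ran from 520491 to 757931, the depth behind the values is unknown, and the stem cell markers Pou5f1, Sox2, Nanog and Sall4 stood at 40.1 FPKM or more in every clone. The founder line also separates the files by format, and the sources used here do not say whether both lines were handled together, so line and handling cannot be told apart. In bulk RNA, fewer cells of a type and less RNA per cell cannot be told apart either.

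A pattern described below is a level in the WT clone of line 4 well above the other clones (Klf4 and Tfcp2l1). Another is that both KO clones lay below both WT clones after each clone was centred on its own median gene (Nr0b1 and Zfp296). Promoter sequence is shown for these 4 members. Each is the 250 bases before the gene's start in RefSeq on build GRCm38.p6, 5′ to 3′ on the gene's strand, at chr4:55532476-55532725 (minus strand), chr1:118627695-118627944 (plus strand), chrX:86191525-86191774 (plus strand) and chr7:19577037-19577286 (plus strand). Capitals mark CACCC (the core that Klf factors bind), GGGCGG (the GC box bound by Sp and Klf factors), AAGGTCA (a motif of Esrrb and Nr5a2) and CACGTG (the E-box bound by Myc and Max), searched on both strands.
Klf4: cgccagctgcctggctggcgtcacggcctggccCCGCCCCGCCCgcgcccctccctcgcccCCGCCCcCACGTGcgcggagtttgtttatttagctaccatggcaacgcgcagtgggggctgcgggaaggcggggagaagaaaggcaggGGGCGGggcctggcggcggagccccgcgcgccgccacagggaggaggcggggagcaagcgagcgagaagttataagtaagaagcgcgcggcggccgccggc
Tfcp2l1: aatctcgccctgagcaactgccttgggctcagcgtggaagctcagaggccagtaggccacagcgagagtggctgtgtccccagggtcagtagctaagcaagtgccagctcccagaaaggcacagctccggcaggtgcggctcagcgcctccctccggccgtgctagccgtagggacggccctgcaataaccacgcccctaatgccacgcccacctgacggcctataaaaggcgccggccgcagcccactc
Nr0b1: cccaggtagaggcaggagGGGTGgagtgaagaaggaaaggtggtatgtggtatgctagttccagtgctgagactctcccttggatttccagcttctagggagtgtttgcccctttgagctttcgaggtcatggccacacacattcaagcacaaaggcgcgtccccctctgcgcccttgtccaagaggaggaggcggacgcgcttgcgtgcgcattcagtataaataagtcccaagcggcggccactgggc
Zfp296: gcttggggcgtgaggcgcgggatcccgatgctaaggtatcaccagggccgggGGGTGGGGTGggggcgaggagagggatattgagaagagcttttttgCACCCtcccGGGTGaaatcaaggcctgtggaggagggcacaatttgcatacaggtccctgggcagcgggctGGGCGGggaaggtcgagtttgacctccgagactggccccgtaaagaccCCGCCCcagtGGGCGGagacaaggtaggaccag

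The promoter of Klf4 held 4 GC boxes and an E-box, and that of Zfp296 held 4 CACCC cores and 3 GC boxes. Nr0b1 held 1 CACCC core, and none of these letters were found in the window of Tfcp2l1. RefSeq had 10 promoter entries for 8 of the members, and CACCC was in 7 of these entries, against 52.0% of 32851 promoters of the same length. GGGCGG was in 4 of 10 entries, against 32.7% of all promoters, and CACGTG in 1 of 10, against 6.02%. AAGGTCA was in 0 of the 10 entries and in 4.08% of all promoters. These are matches of letters and not sites of binding.

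Across the clones Esrrb was the most abundant of the 10 factors, at a mean of 65.3 FPKM over all 4 clones, and Tbx3 the least, at 6.60. In order of mean level, Esrrb was followed by Klf4 (60.0 FPKM), Klf2 (39.0), Nr0b1 (37.1), Zfp42 (33.2), Tfcp2l1 (32.5), Klf5 (25.6), Zfp296 (9.10), Nr5a2 (7.66) and Tbx3. The ranges of neighbours in this order overlapped, with 1 gap: the lowest value of Klf5 was 16.4 FPKM and the highest of Zfp296 12.1. Esrrb was more abundant than 89.3% of tested genes and Tbx3 more abundant than 39.2%. The plot of levels by clone shows the factors in this order.

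**Figure D1:**
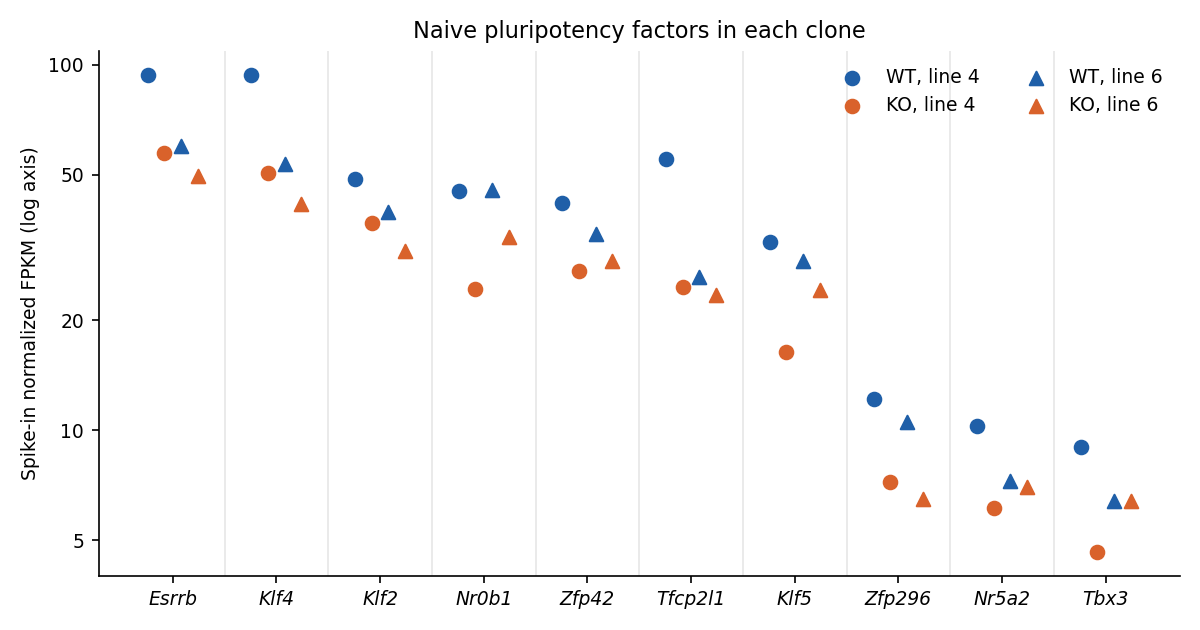
Level of each naive factor in every clone, in spike-in normalized FPKM on a log axis, with circles for line 4, triangles for line 6, blue for WT and orange for KO; each point is 1 library. For 9 of 10 factors both KO points lie below both WT points, against 59.8% of tested genes. Tfcp2l1 in the WT clone of line 4 (55.4 FPKM) lies far above its other 3 points.

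KO clones had less of nearly all naive factors on the deposited scale, as of most tested genes, and by more in line 4 than in line 6. All 10 were listed lower in the KO clone of line 4, as were 97.6% of tested genes. All but Tbx3 were in that of line 6, against 87.7% of tested genes. Thus 9 of 10 were lower in both lines, near the 86.3% of all tested genes. Both KO clones lay below both WT clones for the same 9 factors, against 59.8% of tested genes. In line 4, 9 factors were lower by at least 1.5-fold, where 30.9% of tested genes were, and Klf2 was the exception. In line 6, 1 was (Zfp296), where 3.80% of tested genes were.

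No factor passed the test of KO against WT over all genes: the limma adjusted p was 0.445 for each of the 10, and 0.0168% of tested genes passed. The log2 fold changes ran from -0.65 for Zfp296 to -0.36 for Nr5a2, against -0.32 for the median gene. Unadjusted, 5 of 10 factors had a p under 0.05 (Klf4, Klf5, Tfcp2l1, Nr0b1 and Zfp296), against 5.54% of tested genes. That count was 0 with centred values, where 60 genes were higher and 24 lower at that p. With quantile normalization it was also 0 (57 and 19 genes). It was 3 without the filter (176 and 1568) and 5 with a pseudocount of 0.1 FPKM (11 and 654). A block for the founder line gave 7 (54 and 2309), and the block on centred values gave 4 (339 and 345). On centred values the deleted gene Kat2a had a log2 fold change of -1.28. Its limma adjusted p there was 0.99998 without the block and 0.0469 with it. With the founder line as a block, 95 genes passed in place of 2, and again 0 of the 10 factors, with limma adjusted p-values from 0.12 to 0.256. With 2 clones per genotype, the p-values without the block rest on the spread between clones of separate lines and on a spread that limma pools over genes of similar abundance. Those with the block rest on the pooled spread alone as deposited, and on centred values also on each gene's own spread.

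Relative to the median gene the list lay lower in line 4 than in line 6. In line 4, 9 of 10 factors lay below the median gene, with a list median of -0.32 on the log2 scale. In line 6, 7 of 10 lay below it, with a list median of -0.08. Klf4, Klf5, Esrrb, Nr0b1, Zfp42 and Zfp296 lay below it in both lines, which is 6 of 10, against 27.1% of tested genes. None exceeded it in both lines, where 27.1% of tested genes also lay. The other 4, Klf2, Tbx3, Tfcp2l1 and Nr5a2, lay on opposite sides of it in the lines, against 45.8% of tested genes. As deposited, the signs differed for 1 of 10, Tbx3, against 12.7%. Over the 4 libraries all 10 lay below the median gene, with a median of -0.23. Without the WT clone of line 4, however, 4 of 10 lay below it and the list median was 0.021, so the position over the 4 libraries depended on that library. That fit sets the KO clones of both lines against WT of line 6 alone, so the difference between the lines enters it. The line 6 values above do not use the WT clone of line 4.

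**Figure D2:**
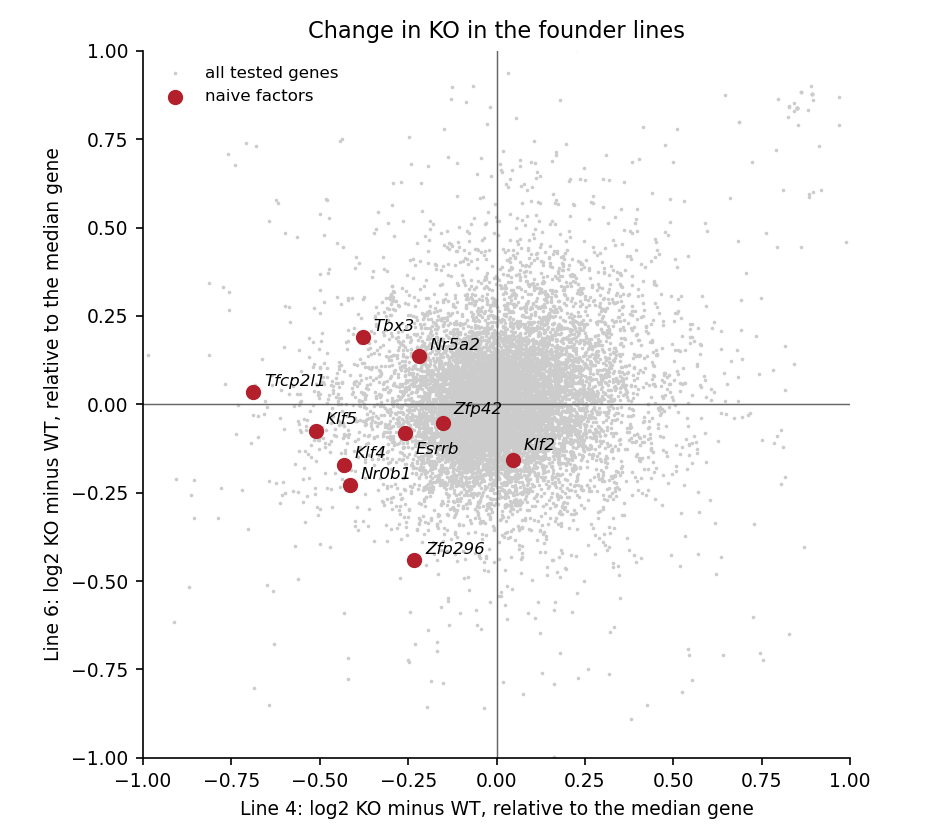
Log2 KO minus WT relative to the median gene in line 4 (x axis) and line 6 (y axis), with grey points for all tested genes and red points for the naive factors; 74 genes lie beyond the axes. The lower left quadrant holds 6 factors, Tfcp2l1, Tbx3 and Nr5a2 lie left of the vertical line and above the horizontal one, and Klf2 lies to the right and below.

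Among the Krüppel-like factors, Klf4 differed most between clones and Klf2 least. Klf4, a zinc finger factor induced by LIF and Stat3, was listed at 93.9 FPKM in WT and 50.7 in KO of line 4, and at 53.7 in WT and 41.7 in KO of line 6. The WT clone of line 4 was 1.75-fold above the next highest clone, and the other 3 lay between 41.7 and 53.7 FPKM. Its KO mean was 46.2 ± 6.37 FPKM and its WT mean 73.8 ± 28.4 (SD, n = 2), a log2 fold change of -0.62 (SE 0.25, limma adjusted p = 0.445). The fold change was -0.22 without the WT clone of line 4 and -1.01 without that of line 6. Relative to the median gene Klf4 lay at -0.43 in line 4, where 1.89% of tested genes lay lower, and at -0.17 in line 6.

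Klf5, which acts with Klf2 and Klf4 and shares many of their targets, was listed at 32.8 FPKM in WT and 16.4 in KO of line 4, and at 29.1 and 24.1 in line 6. Its WT clones lay close together and the KO clone of line 4 was the low one. The log2 fold change came to -0.61 (SE 0.24; adjusted p = 0.445 by limma), at -0.51 relative to the median gene in line 4 and -0.07 in line 6. Only 0.972% of tested genes lay lower in line 4.

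Klf2, whose protein is lowered by ERK signalling and whose gene responds to the related kinase ERK5, was listed at 48.8 FPKM in WT and 36.8 in KO of line 4, and at 39.5 and 30.9 in line 6. The KO/WT ratio was 0.754 in line 4 and 0.783 in line 6, the most alike of any pair of lines after Zfp296. In line 4 Klf2 was the 1 factor above the median gene, at 0.047, and in line 6 it lay at -0.16. Its log2 fold change came to -0.37 (SE 0.23; adjusted p = 0.445 by limma).

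Esrrb, an orphan nuclear receptor that Tcf7l1 represses, was listed at 94.1 FPKM in WT and 57.4 in KO of line 4, and at 60.1 and 49.8 in line 6. As for Klf4, the WT clone of line 4 stood apart, 1.57-fold above the next highest. The log2 fold change came to -0.49 (SE 0.24; adjusted p = 0.445 by limma), at -0.26 relative to the median gene in line 4 and -0.08 in line 6. It was -0.17 without the WT clone of line 4 and -0.80 without that of line 6.

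Tfcp2l1, a CP2 family factor induced by LIF and Stat3, had the widest range. It was listed at 55.4 FPKM in the WT clone of line 4, and at 24.7, 26.2 and 23.5 in KO of line 4, WT of line 6 and KO of line 6. The first value was 2.12-fold above the next highest, and the other 3 lay close together. In line 4 KO stood at 0.446 of WT, with 0.293% of tested genes lower relative to the median gene, at -0.69. In line 6 the ratio was 0.898, slightly above the median gene at 0.035. The log2 fold change came to -0.64 (SE 0.28; adjusted p = 0.445 by limma) with all 4 libraries and -0.11 without the WT clone of line 4.

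Tbx3, a T-box factor that supports self-renewal and also acts in endoderm, was listed at 8.98 FPKM in WT and 4.64 in KO of line 4, and at 6.38 and 6.41 in line 6. It was the 1 factor whose KO and WT clones overlapped. Relative to the median gene it lay at -0.38 in line 4 and 0.19 in line 6, and its log2 fold change came to -0.41 (SE 0.27; adjusted p = 0.445 by limma).

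Among the factors of the nuclear receptor family, Nr0b1 was listed at the same level in both WT clones and lower in both KO clones. Nr0b1 (Dax1), which lacks the usual DNA-binding domain and represses other receptors, was listed at 45.1 and 45.3 FPKM in WT of lines 4 and 6 and at 24.4 and 33.8 in KO. The WT mean was 45.2 ± 0.186 FPKM and the KO mean 29.1 ± 6.63 (SD, n = 2). The log2 fold change came to -0.64 (SE 0.23; adjusted p = 0.445 by limma), and it lay at -0.42 relative to the median gene in line 4 and -0.23 in line 6.

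Nr5a2 (Lrh-1), a receptor that can activate Pou5f1, was listed at 10.3 FPKM in WT and 6.12 in KO of line 4, and at 7.26 and 6.99 in line 6. Again the WT clone of line 4 was the high one, 1.42-fold above the next. Nr5a2 lay at -0.22 in line 4 and 0.14 in line 6 relative to the median gene, with a log2 fold change of -0.36 (SE 0.26, limma adjusted p = 0.445).

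Of the zinc finger factors, Zfp296 was lower in KO by a like amount in both lines. Zfp296, a partner of Klf4, was listed at 12.1 FPKM in WT and 7.22 in KO of line 4, and at 10.5 and 6.49 in line 6, so KO/WT was 0.595 and 0.615. The means were 11.3 ± 1.13 FPKM in WT and 6.85 ± 0.518 in KO (SD, n = 2), with a log2 fold change of -0.65 (SE 0.25, limma adjusted p = 0.445). Relative to the median gene it lay at -0.23 in line 4 and at -0.44 in line 6, where 1.15% of tested genes lay lower. Exons of Zfp296 overlap those of Gemin7 on the opposite strand in GENCODE M21, and the sources used here do not say whether the counting used strand. Gemin7 was listed at 16.5 and 18.8 FPKM in WT and 12.2 and 15.0 in KO. Exons of Tbx3 and Tfcp2l1 also overlap other annotated genes, Tbx3os1 and Gm23497, which the files do not list under those names.

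Zfp42 (Rex1), a widely used marker of the naive state and a relative of Yy1, was listed at 41.8 FPKM in WT and 27.3 in KO of line 4, and at 34.5 and 29.1 in line 6. The KO clones lay close together, at 28.2 ± 1.26 FPKM, below both WT clones, at 38.2 ± 5.17 (SD, n = 2). It lay near the median gene, at -0.15 in line 4 and -0.05 in line 6, with a log2 fold change of -0.42 (SE 0.23, limma adjusted p = 0.445).

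Once each clone was centred on its own median gene, both KO clones lay below both WT clones for 4 factors, Klf5, Nr0b1, Zfp42 and Zfp296, against 8.74% of tested genes. The WT clone of line 4 was the highest of the 4 clones as deposited for 9 factors, against 65.5% of tested genes. It was still the highest for 6 after centring (Klf4, Esrrb, Tbx3, Tfcp2l1, Nr5a2 and Zfp42), against 22.5%. By at least 1.5-fold it stood above every other clone for Klf4, Esrrb and Tfcp2l1, against 7.56% of tested genes.

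Klf4, Esrrb, Tfcp2l1, Klf2 and Zfp296 were listed lower in line 6 than in line 4 in both genotypes. Of all tested genes, 67.4% had a lower value in line 6 in the WT pair, against 36.7% in the KO pair. The share of tested genes lower in both pairs was not counted, so these 5 factors are not set against it. For Tfcp2l1 the line 6/line 4 ratio was 0.473 in WT and 0.950 in KO, for Klf4 0.572 and 0.822, for Esrrb 0.638 and 0.867, for Klf2 0.808 and 0.838, and for Zfp296 0.868 and 0.898. As deposited, both clones of line 6 lay below both of line 4 for 0 of 10 factors, against 17.4% of tested genes. After centring they did so for Klf2, Klf4, Esrrb and Tfcp2l1, 4 of 10, against 31.9%, so the share of the list is near that of all genes. Between the KO clones, where most tested genes were higher in line 6, 5 of 10 factors were listed higher in it. These were Klf5, Nr0b1, Tbx3, Nr5a2 and Zfp42, with ratios of 1.47, 1.38, 1.38, 1.14 and 1.07. Between the WT clones the same factors stood at 0.887, 1.01, 0.710, 0.706 and 0.825.

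No factor passed the test of line 6 against line 4 on the deposited scale. The log2 differences ran from -0.56 for Tfcp2l1 (SE 0.35, limma adjusted p = 0.734) and -0.54 for Klf4 (SE 0.35, limma adjusted p = 0.781) to 0.23 for Nr0b1 (SE 0.35, limma adjusted p = 0.999). On this scale 1.03% of tested genes were lower and 0.947% higher in line 6. That fit leaves genotype out. With genotype as a term 1089 genes passed in place of 236, and again 0 of the 10 factors. The lowest limma adjusted p-values among the factors were then 0.0631 for Tfcp2l1 and 0.064 for Klf4. On centred values without that term Klf4 and Esrrb passed, at -0.49 and -0.38 (limma adjusted p = 0.045 and 0.0341). That is 2 of 10, against 30.2% of tested genes, a share below that of all genes. Without the WT clone of line 4 the log2 difference as deposited was -0.098 for Klf4, against -0.54 with all clones, -0.069 for Esrrb, against -0.42, and 0.0044 for Tfcp2l1.

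**Figure D3:**
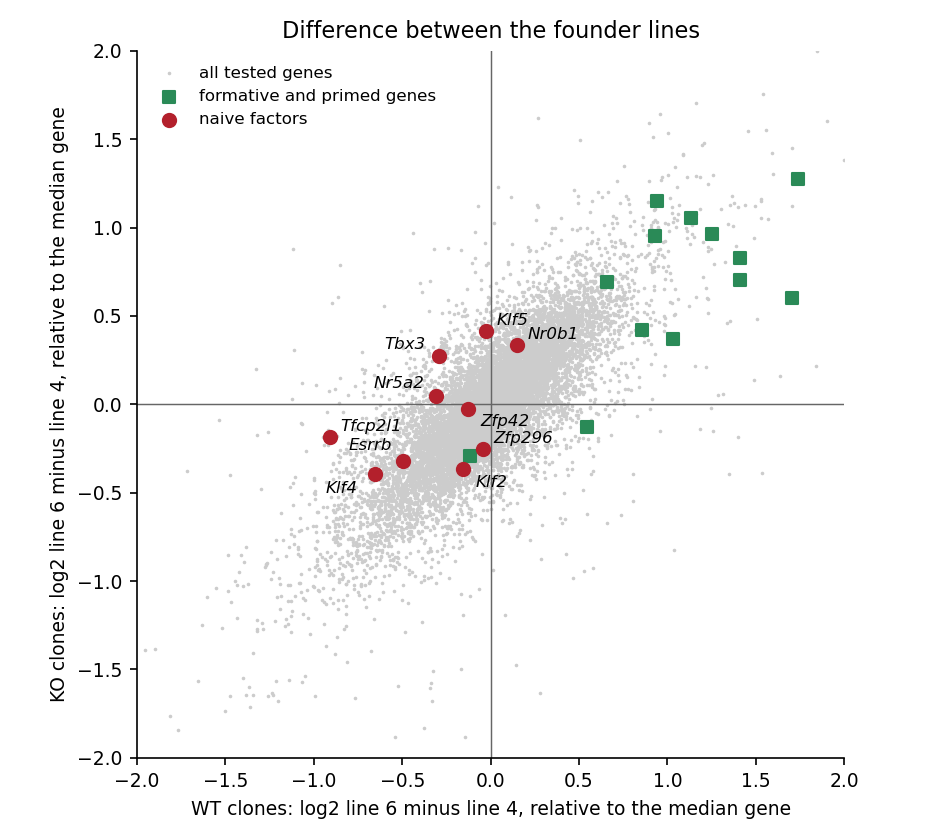
Log2 line 6 minus line 4, relative to the median gene, for the WT pair (x axis) and the KO pair (y axis), with grey points for all tested genes, red for naive factors and green squares for formative and primed genes; 34 genes lie beyond the axes. On the x axis 9 of 10 naive factors lie left of 0, with Tfcp2l1, Klf4 and Esrrb farthest, and on the y axis 6 of 10 lie below 0. In the upper right quadrant lie 11 of 13 green squares. The share of all tested genes there was not counted, and across genes the differences on the axes correlated at r = 0.70.

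Of 13 tested genes of the formative and primed states, which follow the naive state, 6 passed as higher in line 6 and 0 as lower, against 0.947% and 1.03% of all tested genes: the transcription factors Sall2, Sox3, Foxd3, Pou3f1 and Zic2, and the adhesion gene Cdh2. Sall2 was listed at 0.644 and 0.612 FPKM in WT and KO of line 4 and at 3.98 and 3.24 in line 6, a log2 difference of 1.496 (SE 0.25, limma adjusted p = 1.52e-06). Without the filter on low values no gene of any kind passed between lines. Pou3f1 (Oct6) was listed at 2.55 and 2.37 FPKM in line 4 and 6.68 and 6.12 in line 6. Relative to the median gene, the list median was 1.03 in the WT pair and 0.70 in the KO pair, where that of the naive factors was -0.23 and -0.11. In KO against WT, 0 of 13 passed, and 12 of 13 lay above the median gene in line 4 (median 0.42) and 7 of 13 in line 6 (median 0.0079).

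The LIF pathway, which acts on Klf4 and Tfcp2l1, differed between the lines at its feedback gene. Socs3, an inhibitor that Stat3 induces, was listed at 44.2 and 27.9 FPKM in WT and KO of line 4 and at 14.1 and 14.4 in line 6 (log2 difference -1.24, SE 0.34, limma adjusted p = 0.0208). It was the 1 of 11 tested genes of the pathway that passed between lines, and 0 passed between genotypes. Stat3 itself, singled out after its values were seen, was listed at 35.4 FPKM in WT and 19.7 in KO of line 4 and at 23.5 and 19.7 in line 6. Its WT clone of line 4 was the high one, as that clone was for 65.5% of tested genes. In KO the list median was -0.03 relative to the median gene in line 4 and 0.03 in line 6.

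The Wnt and Tcf7l1 list had 1 of 9 tested genes past the test between lines and 0 between genotypes. Lef1, a Wnt effector, was listed at 6.47 and 3.82 FPKM in WT and KO of line 4 and at 12.9 and 12.2 in line 6 (log2 difference 1.18, SE 0.33, limma adjusted p = 0.0255). Of the 16 tested genes of the FGF and ERK list 0 passed either test. Its most abundant members, the kinase Map2k1, the ETS factor Etv5 and the ligand Fgf4, stood at 82.6, 69.8 and 66.8 FPKM in WT and at 65.0, 61.0 and 47.2 FPKM in KO on average. The list medians in KO relative to the median gene were 0.04 and 0.09 for Wnt, and 0.05 and -0.02 for FGF and ERK, in lines 4 and 6.

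Other pluripotency factors lay nearer the median gene in KO than the naive factors did in line 4. In this list of 13 the medians were -0.04 in line 4 and 0.02 in line 6, and 0 passed between genotypes. Pou5f1 (Oct4) lay at -0.21 and -0.10, Nanog at -0.12 and -0.11 and Sox2 at -0.07 and -0.07 in lines 4 and 6. Gbx2, which Stat3 can induce, passed as higher in line 6 (log2 difference 1.29, SE 0.32, limma adjusted p = 0.00508), at 3.90 and 2.08 FPKM in WT and KO of line 4 and 7.63 and 9.41 in line 6. Of the 13 stem cell marker genes, Tcl1 passed as lower in line 6 (log2 difference -1.31, SE 0.34, limma adjusted p = 0.0120), and 0 passed between genotypes, with medians of -0.08 and -0.05.

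Relatives of the factors were mostly listed near the median gene. Of 17 other Klf and Sp genes 13 were tested and 0 passed either test, with medians in KO of -0.07 in line 4 and 0.02 in line 6. The most abundant, Klf9, Sp3 and Klf10, stood at 42.4, 41.3 and 42.5 FPKM in WT and at 33.2, 31.5 and 29.96 FPKM in KO on average. Of 8 relatives of Esrrb, Tbx3, Tfcp2l1, Nr0b1, Nr5a2 and Zfp42, 4 were tested and 0 passed, with medians of -0.05 and -0.03. The other 4, Esrrg, Tbx2, Nr0b2 and Nr5a1, were under 1 FPKM in every clone.

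**Figure D4:**
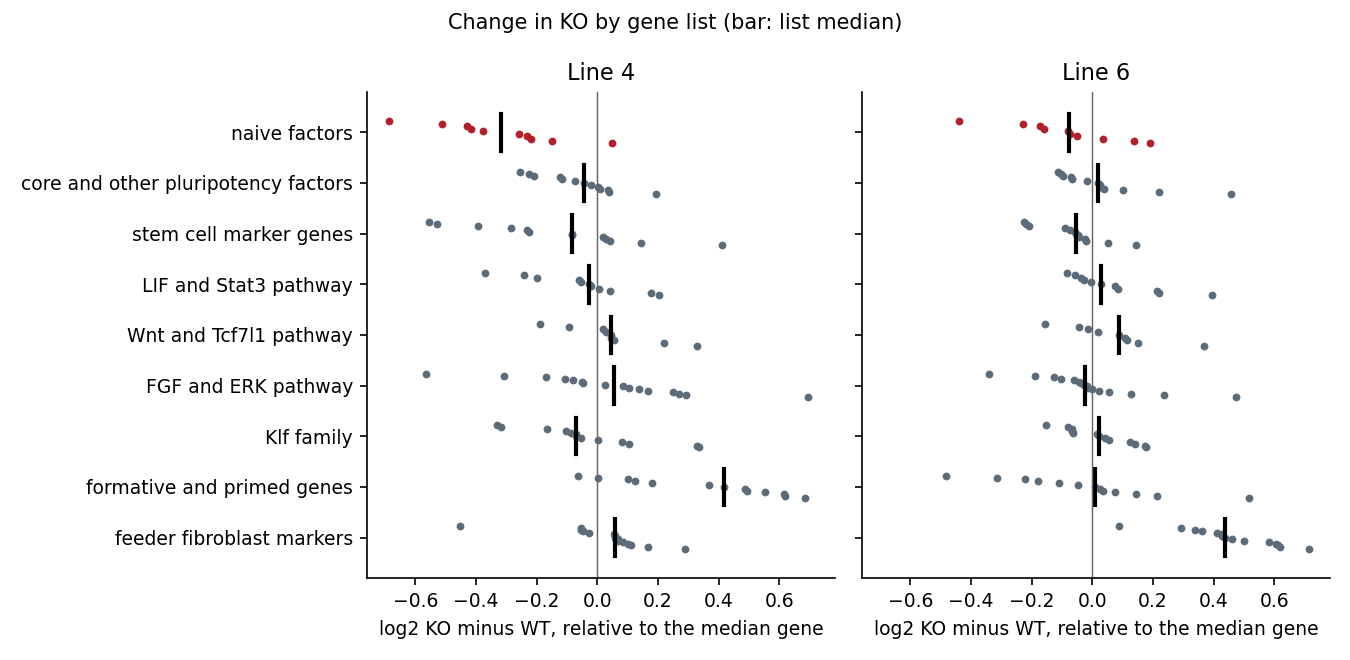
Log2 KO minus WT relative to the median gene for every tested gene of 9 lists, in line 4 (left) and line 6 (right); each point is 1 gene and the black bar is the list median. The bar of the naive factors lies at -0.32 in line 4 and -0.08 in line 6, and feeder fibroblast markers lie at 0.06 and 0.44.

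Markers of other cell types that a culture on feeders could hold were listed beside the naive factors. The 16 feeder fibroblast markers summed to 379 and 347 FPKM in WT of lines 4 and 6 and to 278 and 405 in KO, and the 10 naive factors to 443, 312, 256 and 253 in the same order. Of 15 tested feeder markers, 10 exceeded the median gene in line 4 (median 0.06) and 15 in line 6 (median 0.44). As deposited, all 15 were listed lower in KO of line 4, as were 97.6% of all tested genes. In KO of line 6, 14 were listed higher, where 87.7% of all tested genes were listed lower. The number above the median gene in both lines was 10, against 27.1% of tested genes. The lowest value of any of them was 0.339 FPKM, and S100a4 passed as higher in line 6. The part of the feeder cells in the values of the naive factors was not tested. Extraembryonic endoderm markers summed to between 8.73 and 28.7 FPKM, with 5 of 10 under 1 FPKM in every clone. Of its 4 tested members Dab2 passed as higher in line 6, and the medians in KO were -0.15 and -0.10. Trophectoderm markers summed to between 54.1 and 68.4 FPKM, with Cdx2, Elf5, Gata3 and Hand1 under 1 FPKM in every clone and medians of 0.22 and 0.15 over 6 tested members.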

How the data were processed

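RNA from 4 mouse embryonic stem cell clones was spiked with ERCC controls and sequenced after ribosomal RNA removal in a stranded kit, per the labels' protocols. Per the file headers, the authors deposited 1 FPKM value per gene and library, scaled by the spike-ins. The submitters' processing notes name Bowtie 0.12.8, TopHat2 2.0.9, affy, HTSeq, edgeR and build mm9 without roles. How spike-ins set the scale, which clone received which ERCC mix and the read depth are not given in the sources used here, so no counting interval is given. Of 23376 entries per file, 92 spike-ins and 25 names without a partner in the other files were left out.

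A pseudocount of 1 FPKM was added before taking log2, so changes of low genes are understated. Genes averaging 1 FPKM or more were tested with limma 3.58.1 in R 4.3.3 (a trend, two-sided, Benjamini-Hochberg over all tested genes, threshold 0.05), KO against WT and line 6 against line 4, each without a block. A value relative to the median gene is a log2 difference less the median over all tested genes. Replicate numbers are founder lines, so they pair the clones: deviations of same-line clones correlated at r = 0.70 across genes. The line fit and the blocked fit as deposited gave every gene the spread of its level. Members and lists were chosen with earlier results of these data known. All 10 members are named, with, from each other list, those past a test or else the most abundant. Alternatives were a pseudocount of 0.1 FPKM, no filter, centring, quantile normalization, blocks and leaving out each clone.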

Additional observations from a re-analysis of the deposited data

Results flagged for a closer look

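The difference of KO and WT relative to the median gene had opposite signs in the founder lines for 4 of 10 factors, near the 45.8% of all tested genes, and as deposited for 1 (Tbx3), against 12.7%. There was 1 pair of clones per line, so the difference between the lines was not tested. As deposited, Tbx3 was lower in KO of line 4 and level in line 6, and the log2 changes lay 0.83 apart. Relative to the median gene, the change in line 6 less that in line 4 was 0.72 for Tfcp2l1, 0.57 for Tbx3, 0.35 for Nr5a2 and -0.21 for Klf2. The first 3 lay below the median gene in line 4 and above it in line 6, and Klf2 the reverse.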

How the results depend on the processing

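All 10 factors kept a negative log2 fold change in KO against WT under every alternative run. As deposited, 97.2% of tested genes had a negative fold change over the 4 libraries. With quantile normalization the smallest changes of the factors were -0.011 for Klf2 and -0.046 for Nr5a2. With all 4 clones kept, 0 factors passed under any alternative. With the replicate block (founder line as a term) the lowest limma adjusted p was 0.12, for Nr0b1 and Klf4, and 0.0861 with a robust spread. The number of genes past the threshold, 2, was 0 with centring, no filter or quantile normalization, and with the replicate block it was 95, or 91 if the spread was estimated robustly, or 33 if clones were centred first. It ran from 0 to 133 without single clones, where the lone clone of a group is assumed to vary like the other group. Over those fits the members' median relative to the median gene ran from -0.28 to 0.021 (the latter without WT replicate 1) and 4 to 10 members lay below it. Single factors then ran from -1.17 to -0.11 for Tfcp2l1, -1.01 to -0.22 for Klf4, -0.87 to -0.34 for Klf5, -0.86 to -0.41 for Nr0b1, -0.80 to -0.17 for Esrrb, -0.74 to -0.56 for Zfp296, -0.63 to -0.19 for Tbx3, -0.58 to -0.13 for Nr5a2, -0.55 to -0.28 for Zfp42 and -0.52 to -0.22 for Klf2. In line 4 the members' median was -0.55 without the filter and Klf2 then lay at -0.18. In line 6 Tfcp2l1 lay at -0.088 without the filter. Between lines, 236 genes passed as deposited, 3602 with centring, 1089 with genotype as a term, 3531 with both, 3865 with quantile normalization and 0 without the filter, and from 7 to 1607 without single clones. Of the members, 2 passed with centring, 3 with centring and genotype, 3 with quantile normalization, and 0 to 2 without single clones (Klf4 and Tfcp2l1 without KO replicate 1). Tbx3 lay at 0.020 with centring, with or without genotype, and at 0.0063 with quantile normalization. Without single clones the line difference ran from -0.24 to -0.024 for the members' median relative to the median gene, from -0.97 to -0.098 for Klf4, -0.77 to -0.069 for Esrrb, -0.47 to -0.075 for Klf2, -0.43 to 0.39 for Tbx3, -0.30 to 0.66 for Klf5, -0.20 to 0.66 for Nr0b1, -0.39 to 0.21 for Zfp42, -0.50 to 0.18 for Zfp296, -1.13 to 0.0044 for Tfcp2l1 and -0.47 to 0.19 for Nr5a2. Depth is unknown, and 2 clones per group limit every test. Causes of these shifts were not tested.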
